A study of Mus musculus with 18 samples.

Results

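The subject is a set of 39 genes for the uptake, storage and oxidation of fatty acids, measured in isolated mouse pancreatic islets. The rule lists the genes by name and uses no measured value, though the list was written with earlier results of these data known. A gene entered where the arrays gave it a transcript cluster (the probes read together for 1 transcript) that named no other gene. Of the 39 genes 37 met this, and all 37 were among the 15526 genes tested. Cpt1b, found only in a cluster shared by several genes, and Ucp2 were not analysed here.

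Islet RNA was read on Affymetrix mouse gene arrays, and each value is a deposited log2 signal, so that a difference of 1 is a doubling of signal. Animals with the db/db genotype were on the C57BL/KsJ background and animals with the ob/ob genotype on C57BL/6J, and each was set against lean controls of its own strain at 6 and at 16 weeks of age. The larger table held 16 arrays, 2 in each of 8 groups, and a smaller table from a related array design held 1 further lean KsJ and 1 further db/db array of 16 weeks. No group received a drug or a diet according to the labels, all animals had free access to food and water, and the labels give neither the sex nor the precise control genotype. Both obese genotypes disable leptin signalling, db/db through the leptin receptor and ob/ob through the hormone itself, so neither separates obesity from the loss of leptin action. Genotype was tied to strain throughout, and it is not stated if the 2 arrays of a group stand for separate animals or for pooled islets. The tests thus see only the spread between these arrays. It may be technical, save in the lean groups whose 2 arrays differed in sex (given below), where it includes that difference.

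Fatty acids reach a cell after lipoprotein lipase has cut them from circulating triglyceride, and the scavenger receptor CD36 helps them across the membrane. Inside, binding proteins carry them either to lipid droplets, which perilipins coat and lipases open, or to the carnitine shuttle, which takes them into mitochondria for beta-oxidation. PPAR nuclear receptors, which fatty acids activate, switch on many genes along this route. Beta cells use fatty acids both as fuel and as a signal that strengthens insulin secretion, while long exposure to excess fatty acid and glucose harms them.

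The islet label was met on all 16 arrays: 10 of 10 endocrine markers had a cluster, and their mean lay between 11.64 and 12.27. Of 8 adipocyte markers 6 had a cluster, with a list mean of 2.33 to 3.18. Of these 5, among them Adipoq, Lep and Retn, lay below the expression limit of 2.99 that genes had to pass on average. Cidec, also among the 5, nonetheless read 5.76 on lean 6J array 2 of 6 weeks and 5.35 on db/db array 2 of 16 weeks. A mean over 12 enterocyte markers lay between 4.52 and 6.68 on 14 arrays, but was 10.71 on lean 6J array 2 of 6 weeks and 9.28 on db/db array 2 of 16 weeks. Of 12 acinar markers 8 had a cluster, and their mean was 12.21 on lean KsJ array 2 of 16 weeks and at most 10.59 elsewhere. Among them Ctrc read 8.09 or more on every KsJ array and 5.70 or less on every 6J array. The part of these tissues in the results below was not tested, save for a fit with acinar and enterocyte means as covariates. Without these 3 arrays together the difference turned sign for 12 of the 37 genes in 16-week db/db islets and moved by over 1.5 times, with the same sign, for 17 more, and in 6-week ob/ob islets for 9 and 20. With them left out 16-week db/db and lean KsJ islets and 6-week lean 6J islets had 1 array each, assumed to vary like the other groups. A value given below as without the 3 arrays is from that fit. The Y-linked gene Uty was high (7.25 to 7.86) on 5 arrays and 2.17 to 3.60 on the rest. The 5 were array 1 of each 6-week lean group, lean KsJ array 1 of 16 weeks and the 6-week ob/ob pair. Sex thus differed between arrays of 1 group and, in ob/ob islets, between the ages. Without the 3 arrays, Uty was 7.86 on the lean KsJ array left at 16 weeks and 2.29 on the db/db array left. Sex and genotype cannot be told apart in the 16-week db/db values from that fit. The same holds for sex and strain between its lean islets of 16 weeks, where Uty was 2.17 and 2.26 on the 6J arrays.

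**Figure D1:**
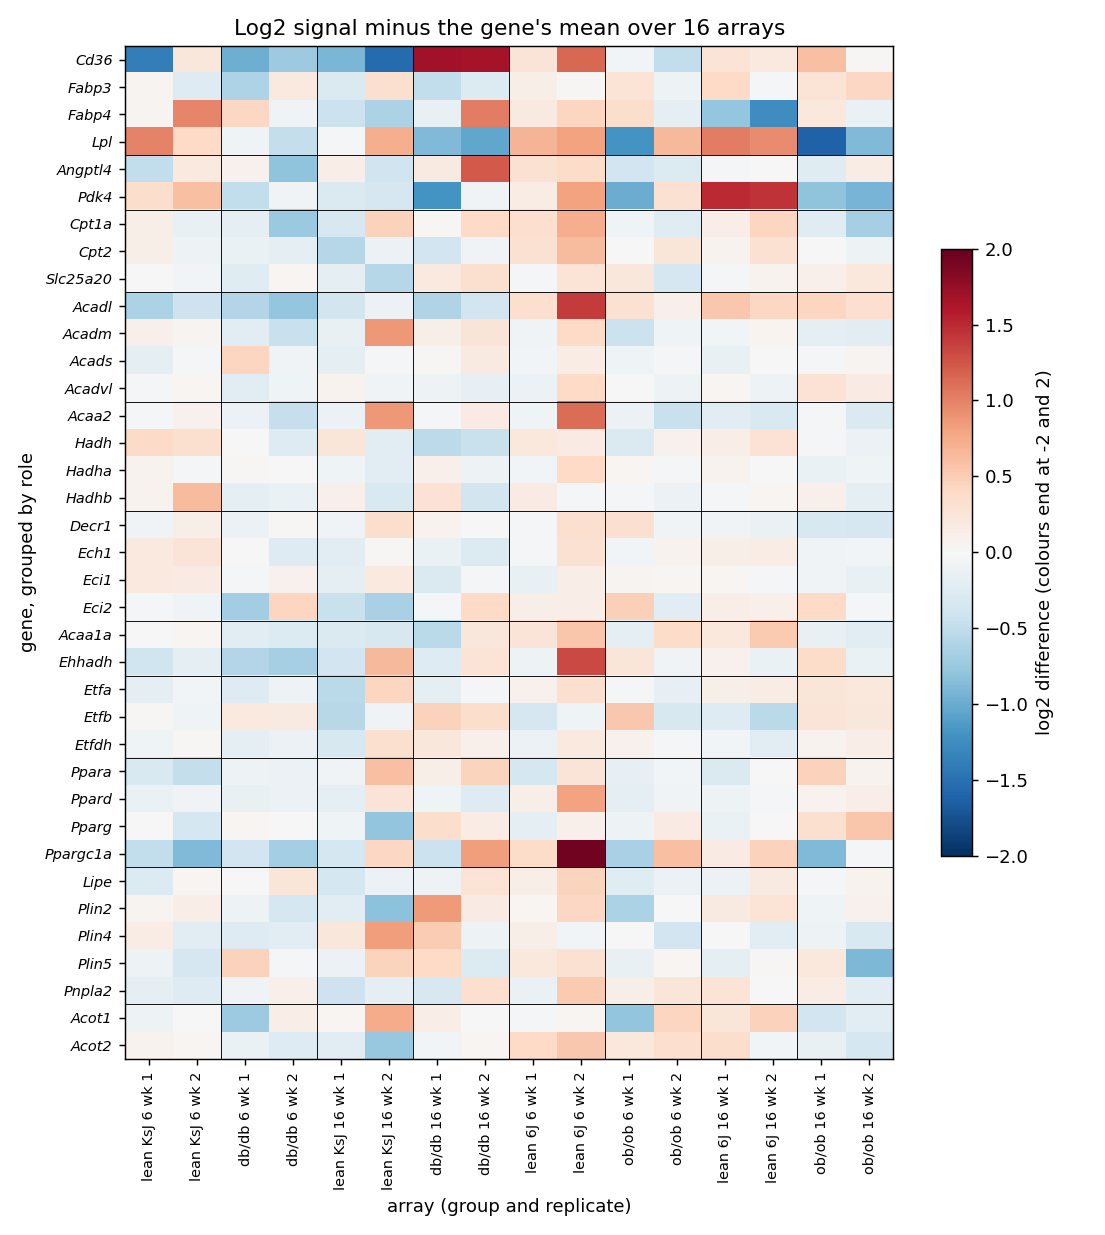
Log2 signal of each of the 37 lipid genes on each of the 16 arrays, shown as the difference from that gene's mean over the arrays, with genes ordered by role. The row of Cd36 stands out on both db/db arrays of 16 weeks, and the column of lean 6J array 2 of 6 weeks holds the highest value of 14 of the 37 genes.

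Among the uptake genes, Cd36, the membrane receptor for long-chain fatty acids, was higher in db/db than in lean KsJ islets at 16 weeks. The db/db arrays read 7.39 and 7.38 against 4.80 and 4.17 on the lean arrays, and no other array of the 16 reached 7. The difference was 2.90 ± 0.46 (SE) on the log2 scale, with an adjusted p of 0.0141 in limma over all genes tested. At 6 weeks the KsJ arrays read 4.73 and 4.98 in db/db and 4.33 and 5.93 in lean islets, which overlap. Cd36 on the 6J background read 6.31 and 5.73 in ob/ob compared with 5.98 and 5.91 in lean islets at 16 weeks, and 5.66 and 5.22 against 5.97 and 6.86 at 6 weeks. The 16-week ob/ob difference was 0.08 ± 0.46, and at 6 weeks both ob/ob arrays lay below both lean arrays with a difference of -0.98 ± 0.46 (adjusted p = 0.791 in limma), or -0.53 without the 3 arrays.

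**Figure D2:**
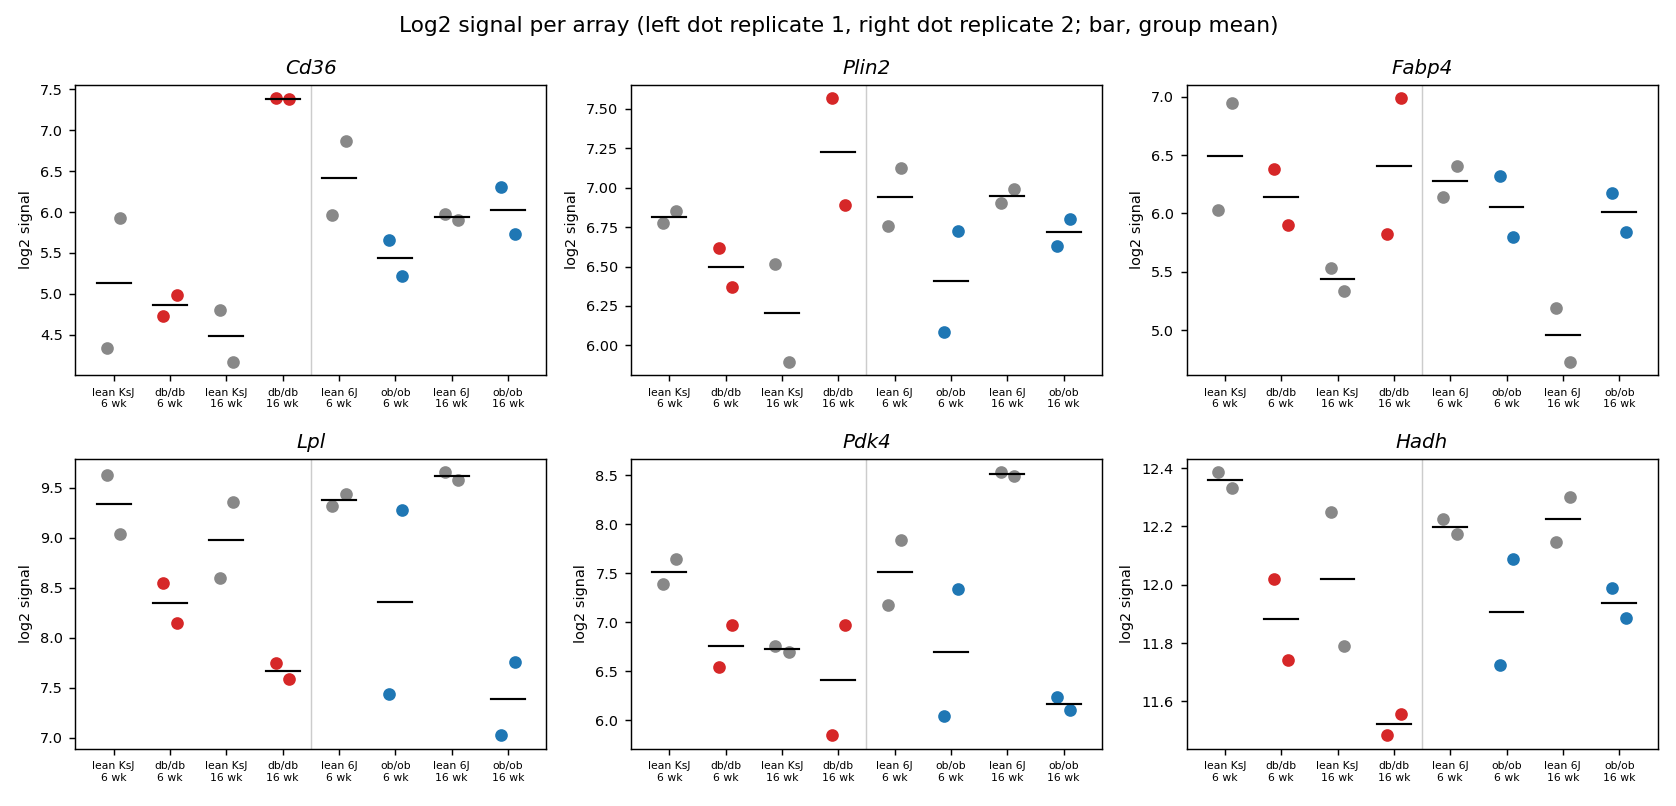
Log2 signal of Cd36, Plin2, Fabp4, Lpl, Pdk4 and Hadh on each of the 16 arrays, 1 point an array and a bar at the group mean, with the 8 groups along the horizontal axis and a separate vertical scale for each gene. Cd36 sits at 7.39 and 7.38 on the 16-week db/db arrays and between 4.17 and 6.86 on the other 14, while Lpl and Pdk4 lie lowest, by group mean, in 16-week ob/ob islets.

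The smaller table held the same ordering for Cd36, with 7.10 on its db/db array and 4.56 on its lean array. That pair has no replicate check, and its db/db array also had an enterocyte mean of 9.42 against 4.51. In the larger table the enterocyte mean was 6.68 and 9.28 on the db/db arrays and 4.65 and 6.16 on the lean arrays. The macrophage mean over 10 of 10 markers was 6.63 and 6.22 in db/db against 5.49 and 4.99 in lean islets, and the endothelial mean 7.05 and 7.29 against 6.81 and 6.08. The matrix-cell mean was 6.04 and 7.32 against 4.73 and 4.95. Macrophages, capillary endothelium and enterocytes are known to make CD36. Their part in the result was not tested beyond a fit with acinar and enterocyte means as covariates. In that fit Cd36 was the 1 lipid gene called of 37 (2.7%), where 6.89% of all genes were called. It held no term for macrophages or endothelium. A change in the number of macrophages, endothelial cells or enterocytes cannot be told apart in bulk RNA from a change in RNA per cell.

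The call for Cd36 ended when either db/db array was left out (adjusted p = 0.0634 and 0.0695 in limma), when lean KsJ array 2 was left out (2.59, 0.0653), or when the 3 arrays named above were left out together (2.60, 0.118), and with array weights (0.333) or the compared groups fitted alone (0.145). With a term for Xist, which follows the sex of the animals, the difference was 2.57 (0.0151). The difference of the difference was also measured: the db/db effect exceeded the ob/ob effect at 16 weeks by 2.82 ± 0.65 (adjusted p = 0.150 in limma) and exceeded its own value at 6 weeks by 3.18 ± 0.65 (adjusted p = 0.361). Neither passed the threshold, although these were the largest differences of any of the 37 genes in both comparisons. The 5 genes whose 8 group means followed Cd36 most closely, out of 15525, were Ccl9, a chemokine (r = 0.98), Creg2 (r = 0.95), S100a6, a calcium-binding protein (r = 0.94), Tfap2e, a transcription factor (r = 0.93), and Lepr, the leptin receptor (r = 0.93). Over single arrays the correlations were lower, from 0.39 for Lepr to 0.71 for Ccl9, and all points share the same arrays. Among the lipid genes the closest were Slc25a20 (r = 0.91), Angptl4 (0.88) and Plin2 (0.88).

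Sequences before an annotated start of Cd36, Pdk4 and Plin2 are shown. The first 2 were the only lipid genes called in any comparison, and Plin2 had the next smallest adjusted p in 16-week db/db islets. Each is the 250 bases before 1 annotated start, 5′ to 3′ on the gene's minus strand, from RefSeq on GRCm38.p6. They lie at chr5:17835897-17836146 for Cd36, chr6:5496279-5496528 for Pdk4 and chr4:86670060-86670309 for Plin2. The Cd36 stretch lies within the gene's full span (chr5:17781690-17888959), and that of Plin2 partly within its own (chr4:86626910-86670217). Their starts are thus internal ones, and only the Pdk4 stretch lies wholly upstream of its gene. Capitals mark AGGTCA, the nuclear receptor core site, and GGGCGG, the GC box, on either strand.
Cd36: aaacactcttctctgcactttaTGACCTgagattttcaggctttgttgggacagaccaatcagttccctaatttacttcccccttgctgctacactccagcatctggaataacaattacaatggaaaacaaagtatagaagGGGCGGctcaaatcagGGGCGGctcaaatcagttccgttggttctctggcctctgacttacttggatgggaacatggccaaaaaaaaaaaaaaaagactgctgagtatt
Pdk4: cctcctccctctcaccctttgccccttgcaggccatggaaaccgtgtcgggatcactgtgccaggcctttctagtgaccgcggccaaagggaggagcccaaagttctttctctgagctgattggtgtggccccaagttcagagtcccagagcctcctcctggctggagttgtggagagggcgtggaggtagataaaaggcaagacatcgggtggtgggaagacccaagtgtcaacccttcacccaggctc
Plin2: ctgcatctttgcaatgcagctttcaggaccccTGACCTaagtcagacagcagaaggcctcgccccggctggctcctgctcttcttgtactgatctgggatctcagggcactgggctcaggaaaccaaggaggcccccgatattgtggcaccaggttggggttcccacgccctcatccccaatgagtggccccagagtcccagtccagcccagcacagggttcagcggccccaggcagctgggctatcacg

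Of the 37 genes 32 had promoter windows in that table, 36 windows of 300 bases from 250 before to 50 after the start, and both strands were searched. AGGTCA was in 9 of the 36 (25.0%), those of Acadm, Acadvl, Cd36, Cpt1a, Plin2, Plin5 and Pparg, against 16.3% of all 32851 windows. GGGCGG was in 26 (72.2%) against 35.7% of all windows. The PPAR-type direct repeat, AGGNCA followed after 1 base by a second AGGNCA, which can overlap core sites, was in 0 of the 36 windows and 0.381% of all. TCAAGGTCA, the site of estrogen-related receptors, which contains AGGTCA, was in 0 and 0.423%, and TGACGTCA, the cAMP response element, in 0 and 1.79%. The E-box CACGTG was in 2 (5.56%), Lipe and Plin2, against 7.15% of all. These matches describe letters only, and the Cd36 window held both a core site and 2 GC boxes while that of Pdk4 held neither.

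Lpl encodes lipoprotein lipase, the enzyme that frees fatty acids from triglyceride. On 16-week arrays it read 7.75 and 7.59 in db/db against 8.59 and 9.36 in lean KsJ islets, and 7.02 and 7.75 in ob/ob compared with 9.66 and 9.58 in lean 6J islets. Both obese groups lay wholly below their controls, by -1.31 ± 0.49 in db/db (adjusted p = 0.134 in limma) and -2.23 ± 0.49 in ob/ob (adjusted p = 0.0844), and neither passed. Without the 3 arrays the db/db value was -0.85. At 6 weeks Lpl read 8.55 and 8.15 in db/db against 9.63 and 9.03 in lean KsJ islets, and 7.44 and 9.27 in ob/ob compared with 9.31 and 9.43 in lean 6J islets. The differences there were -0.98 ± 0.49 and -1.02 ± 0.49, again with no overlap between arrays. A second Lpl cluster gave -1.22 and -1.72 at 16 weeks and -0.38 and -0.54 at 6 weeks, for db/db and ob/ob in that order. In the smaller table Lpl read 7.06 in db/db against 8.18 in lean islets.

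Fabp4 and Fabp3 encode fatty acid binding proteins, Fabp4 being known from adipocytes, macrophages and endothelium. At 16 weeks Fabp4 read 5.82 and 6.99 in db/db against 5.54 and 5.34 in lean KsJ islets, and 6.18 and 5.84 in ob/ob compared with 5.19 and 4.73 in lean 6J islets. Those differences, 0.97 ± 0.40 and 1.05 ± 0.40, did not pass (adjusted p = 0.163 and 0.228 in limma), though the arrays did not overlap in either. Without db/db array 2 alone the db/db value was 0.38. At 6 weeks it read 6.38 and 5.90 in db/db against 6.03 and 6.95 in lean KsJ islets, and 6.32 and 5.80 in ob/ob compared with 6.14 and 6.41 in lean 6J islets, with overlap in both. Fabp4 in lean islets was lower at 16 than at 6 weeks, with -1.05 ± 0.40 in KsJ and -1.32 ± 0.40 in 6J, neither past the threshold (adjusted p = 0.138 and 0.9999 in limma). Fabp3 on the KsJ arrays read 6.26 and 5.96 in lean and 5.59 and 6.41 in db/db islets at 6 weeks, then 5.92 and 6.53 in lean and 5.73 and 5.95 in db/db islets at 16 weeks. On the 6J arrays it read 6.34 and 6.24 in lean and 6.49 and 6.12 in ob/ob islets at 6 weeks, then 6.62 and 6.17 in lean and 6.49 and 6.63 in ob/ob islets at 16 weeks. Fabp3 overlapped in all 4 comparisons of obese with lean islets, and its second cluster differed in sign from the first in 6-week db/db islets (0.56 against -0.11).

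Pdk4 and Angptl4 are genes that fasting and PPAR receptors are known to raise. Pdk4, a kinase that shuts off glucose oxidation at pyruvate dehydrogenase, read 8.53 and 8.49 in lean 6J islets at 16 weeks, above every other array. On the matching lean KsJ arrays it read 6.75 and 6.70, a strain difference of -1.78 ± 0.43 (adjusted p = 0.0433 in limma) and the other call among the 37 genes. The ob/ob arrays of 16 weeks read 6.24 and 6.11, a difference from lean 6J of -2.34 ± 0.43 with an adjusted p of 0.0619 in limma, which did not pass. These comparisons share the same lean 6J arrays. The db/db arrays of that age read 5.85 and 6.97, on both sides of their controls.

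At 6 weeks Pdk4 read 6.55 and 6.97 in db/db against 7.39 and 7.64 in lean KsJ islets, and 6.05 and 7.34 in ob/ob compared with 7.18 and 7.84 in lean 6J islets. The lean strains thus overlapped at 6 weeks (0.01 ± 0.43, or 0.34 without the 3 arrays), and lean 6J islets differed from 6 to 16 weeks by 1.0003 ± 0.43 (adjusted p = 0.9999 in limma). The db/db effect minus the ob/ob effect at 16 weeks was 2.02 ± 0.60 (adjusted p = 0.200). The strain call ended on leaving out either lean 6J array (-1.76 and -1.81, adjusted p = 0.206 and 0.209 in limma) or lean KsJ array 2 (-1.76, 0.167), and under quantile normalization (-1.46, 0.137). It also ended with array weights (0.278), with marker means as covariates (0.256), without the 3 arrays named above (0.119) and with the compared groups alone (0.435). For ob/ob the adjusted p ran from 0.00142 to 0.365 over the alternatives.

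Angptl4, a secreted inhibitor of lipoprotein lipase, read 3.35 and 4.40 in db/db against 3.31 and 2.78 in lean KsJ islets at 16 weeks. The difference of 0.83 ± 0.38 did not pass (adjusted p = 0.204 in limma). It was 0.04 without the 3 arrays, which leaves 3.35 against 3.31. At 6 weeks the values were 3.27 and 2.37 against 2.69 and 3.37. On the 6J background Angptl4 read 2.79 and 2.90 in ob/ob compared with 3.49 and 3.54 in lean islets at 6 weeks, and 2.94 and 3.33 against 3.13 and 3.18 at 16 weeks. Most of these lie close to the expression limit of 2.99.

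The carnitine shuttle consists of Cpt1a, the outer-membrane transferase and rate-limiting entry step, Cpt2, and the carrier Slc25a20. Cpt1a at 16 weeks read 8.54 and 8.92 in db/db against 8.21 and 8.99 in lean KsJ islets, and 8.29 and 7.87 in ob/ob compared with 8.66 and 8.96 in lean 6J islets. At 6 weeks it read 8.33 and 7.79 in db/db against 8.65 and 8.38 in lean KsJ islets, and 8.44 and 8.28 in ob/ob compared with 8.87 and 9.25 in lean 6J islets. The ob/ob arrays lay below their controls at both ages, by -0.73 ± 0.29 at 16 weeks (adjusted p = 0.250 in limma) and -0.70 ± 0.29 at 6 weeks (0.791), without passing. Slc25a20 read 7.26 and 7.38 in db/db against 6.88 and 6.50 in lean KsJ islets at 16 weeks (0.63 ± 0.22, adjusted p = 0.109, or 0.38 without the 3 arrays), and 6.82 and 7.10 against 7.06 and 7.01 at 6 weeks. In 6J islets Slc25a20 read 7.29 and 6.72 in ob/ob compared with 7.02 and 7.34 in lean at 6 weeks, and 7.17 and 7.26 against 7.03 and 7.14 at 16 weeks. In the smaller table the carrier read 6.87 in db/db against 5.47 in lean islets. Cpt2 differences lay between -0.35 and 0.12 over the 4 comparisons of obese with lean islets.

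Of the acyl-CoA dehydrogenases, which open the beta-oxidation cycle for chains of different length, the medium-chain enzyme Acadm read 8.31 and 8.27 in lean KsJ and 7.999 and 7.77 in db/db islets at 6 weeks. At 16 weeks it read 8.07 and 9.08 in lean KsJ and 8.33 and 8.48 in db/db islets, the 2 lean arrays enclosing both. Acadm on the 6J arrays read 8.14 and 8.61 in lean and 7.78 and 8.13 in ob/ob islets at 6 weeks, then 8.16 and 8.26 in lean and 8.03 and 8.005 in ob/ob islets. The long-chain enzyme Acadl followed strain more than genotype. All 8 KsJ arrays read 7.11 to 7.79 and all 8 6J arrays 7.99 to 9.29. Lean KsJ differed from lean 6J islets by -1.39 ± 0.28 at 6 weeks (adjusted p = 0.119 in limma) and -0.71 ± 0.28 at 16 weeks (0.129), neither past the threshold, and the 9.29 was lean 6J array 2 of 6 weeks, the array with the enterocyte mean of 10.71. Without the 3 arrays the strain differences were -0.86 and -0.84. Acadvl and Acads, for very long and short chains, differed by -0.19 to 0.25 and by -0.10 to 0.29 between obese and lean islets, the -0.19 of 6-week ob/ob islets being 0.07 without the 3 arrays.

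The later steps of the cycle hydrate, oxidise and cleave the chain. Hadha, the alpha subunit of the trifunctional protein, read 9.81 and 9.72 in lean KsJ and 9.76 and 9.75 in db/db islets at 6 weeks, then 9.66 and 9.52 in lean and 9.85 and 9.63 in db/db islets at 16 weeks. On the 6J arrays Hadha read 9.69 and 10.14 in lean and 9.78 and 9.73 in ob/ob islets at 6 weeks, then 9.82 and 9.75 in lean and 9.61 and 9.66 in ob/ob islets. Its differences between obese and lean islets stayed between -0.16 and 0.15, the -0.16 of 6-week ob/ob islets being 0.07 without the 3 arrays. The neighbouring gene Hadhb, which encodes the beta subunit and is read from the opposite strand, gave -0.51 to 0.07. Its cluster was dim, with a mean of 4.13 against 9.74 for Hadha. The -0.51 was in 6-week db/db islets, where the lean KsJ arrays lay 0.57 apart.

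Hadh encodes the short-chain 3-hydroxyacyl-CoA dehydrogenase, which in beta cells also restrains glutamate dehydrogenase and so insulin secretion. On 16-week arrays Hadh read 11.48 and 11.56 in db/db against 12.25 and 11.79 in lean KsJ islets, and 11.99 and 11.89 in ob/ob compared with 12.15 and 12.30 in lean 6J islets. On 6-week arrays it read 12.02 and 11.74 in db/db against 12.39 and 12.33 in lean KsJ islets, and 11.72 and 12.09 in ob/ob compared with 12.22 and 12.17 in lean 6J islets. Every obese array thus lay below both of its controls, with differences of -0.50, -0.29, -0.48 and -0.29 in that order (SE 0.20 each), and none passed (smallest adjusted p = 0.145 in limma). Without the 3 arrays the first of these was -0.77. The smaller table gave 10.71 in db/db and 11.08 in lean islets. Etfb, a subunit of the flavoprotein that takes electrons from the dehydrogenases, read 8.97 and 8.87 in db/db against 7.96 and 8.44 in lean KsJ islets and 8.78 and 8.74 in ob/ob compared with 8.26 and 7.98 in lean 6J islets at 16 weeks. Its differences of 0.72 ± 0.26 and 0.64 ± 0.26 did not pass (adjusted p = 0.124 and 0.255 in limma), and its partners Etfa and Etfdh stayed between -0.04 and 0.23 at that age, though without the 3 arrays they were 0.36 and 0.55 in db/db islets. At 6 weeks Etfb read 8.71 and 8.69 in db/db against 8.54 and 8.43 in lean KsJ islets, and 9.06 and 8.19 in ob/ob compared with 8.18 and 8.43 in lean 6J islets.

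The remaining oxidation enzymes gave no call in any of the 14 comparisons. Over the 4 comparisons of obese with lean islets the mitochondrial thiolase Acaa2, which cleaves the shortened chain, differed by -0.80 to 0.10. The -0.80, in 6-week ob/ob islets, was -0.20 without the 3 arrays. The peroxisomal enzymes Acaa1a and Ehhadh, which shorten very long chains, differed by -0.54 to 0.15 and by -0.52 to 0.14. The -0.52 of Ehhadh, in 6-week ob/ob islets, turned to 0.19 without the 3 arrays. Of the enzymes that handle double bonds, Decr1 differed by -0.22 to -0.03, Ech1 by -0.36 to -0.10 and Eci1 by -0.16 to 0.06, while Eci2 was at 0.73 ± 0.34 in 16-week db/db islets (adjusted p = 0.212 in limma, or 0.41 without the 3 arrays) and -0.06 to 0.06 in the other groups. In 16-week db/db islets Decr1, Ech1 and Acaa1a turned to 0.14, 0.09 and -0.25 without the 3 arrays. Eci1 and Ech1 also had the narrowest ranges over the 16 arrays, 0.49 and 0.58, and Cd36 had the widest, 3.22.

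Of the PPAR receptors, Pparg, the form best known from fat tissue, read 6.83 and 6.63 in db/db against 6.40 and 5.69 in lean KsJ islets at 16 weeks, a difference of 0.68 ± 0.24 (adjusted p = 0.112 in limma), or 0.43 without the 3 arrays. In ob/ob it read 6.79 and 7.04 against 6.35 and 6.47 in lean 6J islets (0.51 ± 0.24, adjusted p = 0.314), so all 4 obese arrays of that age lay above their controls without passing. At 6 weeks Pparg read 6.52 and 6.47 in db/db against 6.47 and 6.12 in lean KsJ islets, and 6.38 and 6.64 in ob/ob compared with 6.28 and 6.58 in lean 6J islets. Ppara, the main receptor of fasting liver, read 3.54 and 3.53 in db/db against 3.33 and 3.16 in lean KsJ islets at 6 weeks, and 3.75 and 4.09 against 3.57 and 4.25 at 16 weeks. On the 6J side Ppara read 3.48 and 3.58 in ob/ob compared with 3.29 and 3.89 in lean islets at 6 weeks, and 4.09 and 3.70 against 3.35 and 3.63 at 16 weeks.

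Ppard, the widely expressed receptor, read 7.36 and 7.39 in db/db against 7.38 and 7.44 in lean KsJ islets at 6 weeks, and 7.43 and 7.26 against 7.33 and 7.77 at 16 weeks. In 6J islets it read 7.32 and 7.45 in ob/ob compared with 7.64 and 8.32 in lean at 6 weeks (-0.59 ± 0.22, adjusted p = 0.791 in limma), and 7.58 and 7.64 against 7.41 and 7.49 at 16 weeks. The 8.32 again came from lean 6J array 2, and without the 3 arrays the 6-week value was -0.25. Ppargc1a, the co-activator PGC-1alpha that drives mitochondrial gene expression, read 4.93 and 4.63 in db/db against 4.82 and 4.44 in lean KsJ islets at 6 weeks, and 4.89 and 6.15 against 4.96 and 5.73 at 16 weeks. On the 6J arrays Ppargc1a read 4.67 and 5.92 in ob/ob compared with 5.69 and 7.25 in lean islets at 6 weeks, and 4.43 and 5.29 against 5.48 and 5.77 at 16 weeks. With arrays of 1 group as far apart as 5.69 and 7.25, its SE of 0.58 was the largest among the 37 genes.

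Plin2, the perilipin that coats lipid droplets in most tissues, read 7.57 and 6.89 in db/db against 6.52 and 5.90 in lean KsJ islets at 16 weeks. The difference of 1.02 ± 0.29 missed the threshold (adjusted p = 0.0639 in limma) and passed it in some alternatives, with 0.0436 when only the upper 50% of genes were kept and 0.0277 when both tables were joined. At 6 weeks Plin2 read 6.62 and 6.37 in db/db against 6.77 and 6.85 in lean KsJ islets. In 6J islets it read 6.09 and 6.73 in ob/ob compared with 6.75 and 7.13 in lean at 6 weeks, and 6.63 and 6.80 against 6.91 and 6.99 at 16 weeks. Plin2 therefore lay above its controls only in 16-week db/db islets among the 4 obese groups, and the db/db effect exceeded the ob/ob effect at that age by 1.25 ± 0.41 (adjusted p = 0.230 in limma). The smaller table gave 6.15 in db/db and 5.53 in lean islets.

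The neighbouring genes Plin4 and Plin5 encode further droplet coat proteins, known from fat and from oxidative tissues. Plin4 read 2.92 and 2.97 in db/db against 3.34 and 2.97 in lean KsJ islets at 6 weeks, and 3.69 and 3.09 against 3.42 and 4.03 at 16 weeks. In 6J islets Plin4 read 3.20 and 2.81 in ob/ob compared with 3.31 and 3.14 in lean at 6 weeks, and 3.09 and 2.89 against 3.20 and 2.96 at 16 weeks. Plin5 read 3.995 and 3.505 in db/db against 3.45 and 3.20 in lean KsJ islets at 6 weeks, and 3.94 and 3.27 against 3.42 and 3.98 at 16 weeks. For ob/ob, Plin5 read 3.39 and 3.59 against 3.75 and 3.84 in lean 6J islets at 6 weeks, and 3.75 and 2.64 against 3.36 and 3.57 at 16 weeks. Both genes were near the expression limit, and neither passed in any comparison.

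The lipases that open droplets are Pnpla2, which starts triglyceride breakdown, and Lipe, which acts next on diglyceride. Pnpla2 read 8.11 and 8.27 in db/db against 7.98 and 7.91 in lean KsJ islets at 6 weeks, and 7.86 and 8.51 against 7.75 and 7.98 at 16 weeks. In ob/ob it read 8.29 and 8.42 against 8.04 and 8.69 in lean 6J islets at 6 weeks, and 8.31 and 7.97 against 8.44 and 8.18 at 16 weeks. Lipe read 4.78 and 5.03 in db/db against 4.52 and 4.83 in lean KsJ islets at 6 weeks, and 4.70 and 5.07 against 4.44 and 4.68 at 16 weeks. On the 6J background Lipe read 4.56 and 4.68 in ob/ob compared with 4.90 and 5.23 in lean islets at 6 weeks, and 4.76 and 4.86 against 4.68 and 4.98 at 16 weeks. The largest difference of either gene between obese and lean islets was -0.45 ± 0.21, for Lipe in ob/ob islets of 6 weeks (-0.28 without the 3 arrays).

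Acot1 and Acot2, adjacent and nearly identical genes for cytosolic and mitochondrial thioesterases, may share probes, so their separate values are uncertain. Acot1 read 2.61 and 3.47 in db/db against 3.23 and 3.35 in lean KsJ islets at 6 weeks, and 3.48 and 3.33 against 3.37 and 4.08 at 16 weeks. For ob/ob, Acot1 read 2.55 and 3.77 against 3.31 and 3.37 in lean 6J islets at 6 weeks, and 2.96 and 3.12 against 3.58 and 3.79 at 16 weeks. Acot2 at 16 weeks read 7.84 and 7.93 in db/db against 7.68 and 7.13 in lean KsJ islets (0.48 ± 0.21), and 7.74 and 7.55 in ob/ob compared with 8.25 and 7.85 in lean 6J islets (-0.40 ± 0.21). These opposite signs differed by 0.89 ± 0.29, which did not pass (adjusted p = 0.230 in limma), and without the 3 arrays the db/db value was 0.17 and the differing part 0.57. At 6 weeks Acot2 read 7.76 and 7.64 in db/db against 7.96 and 7.93 in lean KsJ islets, and 8.10 and 8.24 in ob/ob compared with 8.29 and 8.43 in lean 6J islets.

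Read as a set, the lipid genes in 16-week db/db islets gave 1 call, Cd36, where 5.8% of all genes tested were called (5.32% higher and 0.477% lower). At an unadjusted p below 0.05 there were 10 of 37 (27%), against 24.5% of all genes. On 11 of the 37 both db/db arrays lay above both lean arrays and on 4 below, against 32.8% and 10.4% of all genes. These shares are close to the background. The median difference was 0.07, below the 0.18 of all genes, with 20 genes above 0 and 17 below, where 65.7% of all genes were above. Without the 3 arrays 28 were above 0. Quantile normalization moved the all-gene median to 0.05, centring on the tested genes to -0.16 and median centring to 0.37, with 14, 9 and 28 lipid genes above 0. Leaving out 1 array of these groups leaves 1 in its group, so only median differences are given for such fits. They were 0.28 without lean KsJ array 2 and -0.21 without lean KsJ array 1, against 0.16 and 0.22 for all genes. Without db/db array 1 and array 2 they were 0.14 and -0.03, against 0.20 and 0.17 for all genes.

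**Figure D3:**
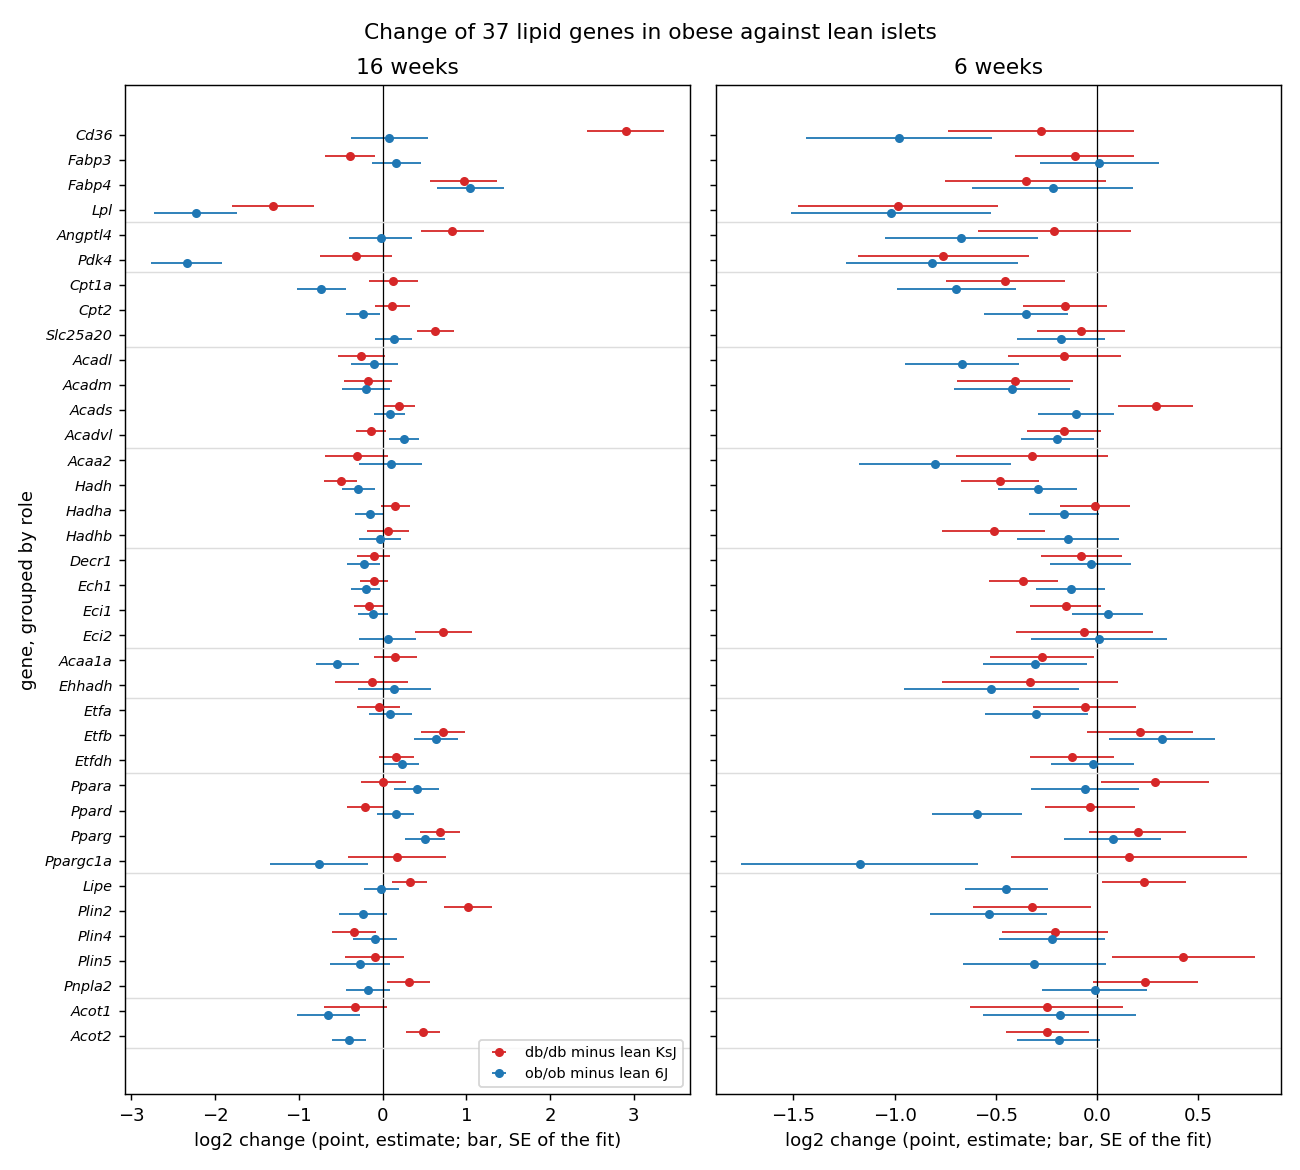
Log2 difference of obese from lean islets for each of the 37 lipid genes, with bars of 1 SE of the fit, for db/db and ob/ob islets, at 16 weeks on the left and 6 weeks on the right. Cd36 at 2.90 in 16-week db/db islets is the only call, and Pdk4 at -2.34 and Lpl at -2.23 in 16-week ob/ob islets are the lowest values.

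In ob/ob islets of 16 weeks limma called 0 of the 37 genes, against 0.0708% of all (0.058% lower). At an unadjusted p below 0.05 there were 5 (13.5%, where all genes gave 16.6%). Both ob/ob arrays lay above both controls on 9 genes and below on 15, where all genes gave 28.2% and 33.3%. Differences lay above 0 for 15 genes and below for 22, where 52.5% of all genes were below. By role, the counts above and below 0 were 3 and 1 for uptake and binding, 0 and 2 for Pdk4 with Angptl4, 1 and 2 for the shuttle, 2 and 2 for the dehydrogenases, 1 and 3 for the later steps, 1 and 1 for the peroxisomal enzymes and 1 and 3 for those acting on double bonds. They were 3 and 0 for the flavoprotein system, 3 and 1 for the PPAR receptors with Ppargc1a, 0 and 5 for the droplet genes and 0 and 2 for the thioesterases.

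At 6 weeks limma called 0 of the 37 genes in either model, where 0.0258% of all genes were called in db/db and 0% in ob/ob islets, and 1 and 3 genes (2.7% and 8.11%) reached an unadjusted p below 0.05, against 8.52% and 6.15% of all genes. In db/db islets 29 of the 37 differences lay below 0 (53% of all genes), with a median of -0.16 against -0.02 for all genes, and 16 genes had both db/db arrays below both controls and 5 above (all genes 27.9% and 21.9%). In ob/ob islets 32 lay below 0 (50.4% of all genes), with a median of -0.22 against -0.003 for all genes, and 16 genes had both arrays below both controls and 0 above (all genes 16.8% and 19.9%). The ob/ob count leaned on lean 6J array 2, on which 14 of the 37 genes had their highest value (37.8%, against 7.7% of all genes). Without that array 12 of the 37 differences lay above 0, in place of 5, with a median of -0.15. Acadl differed by -1.19 without lean 6J array 1, which leaves array 2 as the only control, and by -0.14 without the 3 arrays.

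**Figure D4:**
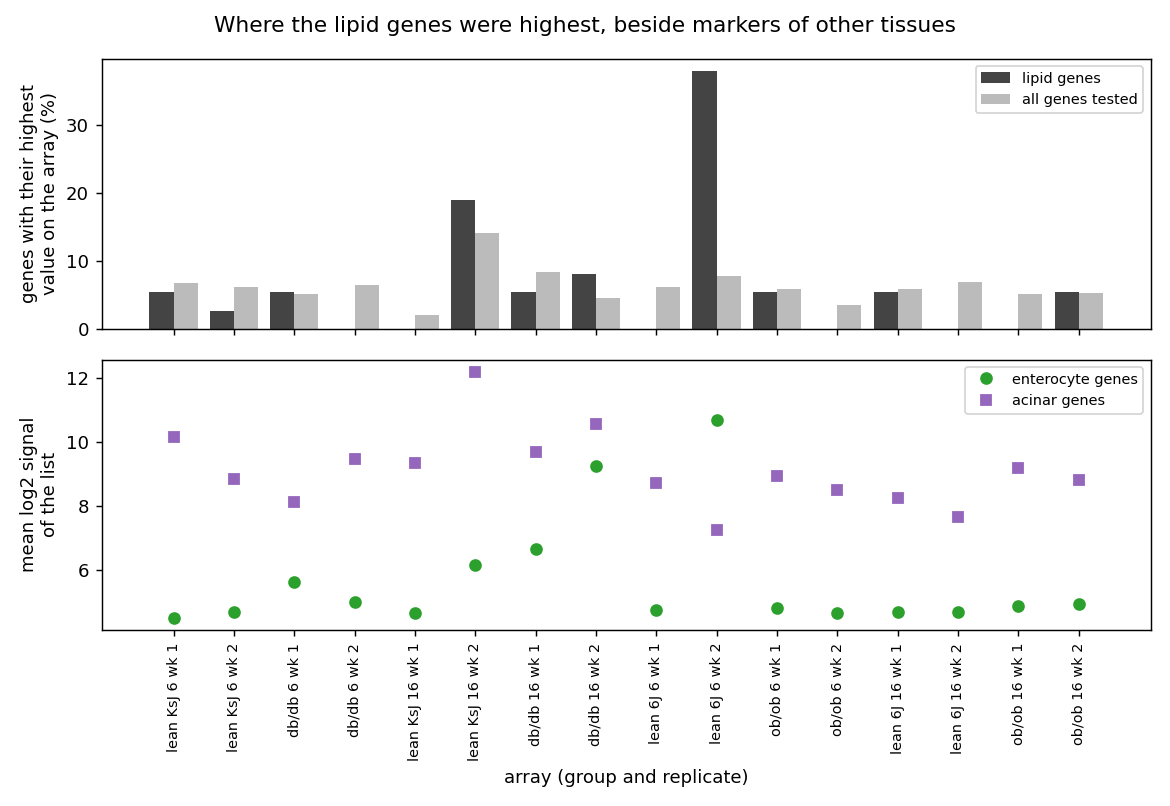
For each of the 16 arrays, the upper panel gives the percent of the 37 lipid genes and of all genes tested that had their highest value on it, and the lower panel the mean log2 signal of the enterocyte and acinar markers. Lean 6J array 2 of 6 weeks holds 37.8% of the lipid genes and 7.7% of all genes, and has the highest enterocyte mean, 10.71.

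Between 6 and 16 weeks limma called 0 of the 37 genes in each of the 4 genotypes, with 4, 2, 3 and 3 at an unadjusted p below 0.05 in db/db, ob/ob, lean KsJ and lean 6J islets. The shares were 10.8%, 5.41%, 8.11% and 8.11%, against 7.61%, 3.9%, 26.3% and 2.87% of all genes. All genes gave 0.0644% called in db/db (0.0386% lower) and 0% in the other genotypes. Uty read 7.25 and 7.61 on the 6-week and 2.21 and 2.33 on the 16-week ob/ob arrays, so age and sex cannot be told apart there. With a term for Xist 9 of the 37 ob/ob differences between ages lay above 0, in place of 21. In db/db islets 14 genes had both 16-week arrays above both 6-week arrays and 3 below, where all genes gave 18.2% and 21.2%. Differences lay above 0 for 24 of the 37 genes, with a median of 0.19. With acinar and enterocyte means as covariates 14 lay above 0, with a median of -0.12, and without the 3 arrays 25 did. Cd36 led with 2.53 ± 0.46 (adjusted p = 0.0993 in limma), followed by Angptl4 at 1.05 ± 0.38 (0.518), Plin2 at 0.73 ± 0.29 (0.572) and Cpt1a at 0.67 ± 0.29 (0.641), none of which passed, and Angptl4 was at 0.53 without the 3 arrays. In lean 6J islets 30 of the 37 differences lay below 0 (42.9% of all genes), and without lean 6J array 2 of 6 weeks 20 lay above, so that count rested on 1 array. Without lean KsJ array 1 of 16 weeks 7 of the 37 genes (18.9%) were called between the ages in lean KsJ islets, and 35.3% of all genes.

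Between the lean strains at 16 weeks 1 of the 37 genes was called, Pdk4, against 4.12% of all genes (0.47% higher and 3.65% lower in KsJ). At an unadjusted p below 0.05 there were 8 (21.6%, against 29.5%). Cd36 was lower on both lean KsJ arrays than on both lean 6J arrays at each age, by -1.46 ± 0.46 at 16 weeks (adjusted p = 0.0823 in limma) and -1.29 ± 0.46 at 6 weeks (0.607), without passing, and the latter was -0.84 without the 3 arrays. The median strain difference of the 37 genes at 16 weeks was -0.19. Leaving out 1 lean array leaves 1 in its group. The median was then -0.16 and -0.12 without lean 6J arrays 1 and 2, and -0.04 and -0.21 without lean KsJ arrays 1 and 2. At 6 weeks limma called 0 of 37 (1 without lean 6J array 1, with 2.49% of all genes), against 0.258% of all genes (0.135% lower in KsJ). An unadjusted p below 0.05 was reached by 5 (13.5%, against 6.65% of all). Sample titles carry different codes for the strains, so strain and any handling that follows the code cannot be told apart. In the tests of whether the genotype effect differed between models or ages limma called 0 of 37 genes in all 4, where all genes gave 0.0129% and 0% between models at 16 and 6 weeks, and 0.00644% and 0% between ages in db/db and ob/ob. At an unadjusted p below 0.05 there were 4, 1, 5 and 3 genes in that order (10.8%, 2.7%, 13.5% and 8.11%), against 15.6%, 2.25%, 13.1% and 2.77% of all genes. Without lean KsJ array 1 of 16 weeks 3 genes (8.11%) were called between models at 16 weeks and 3 between ages in db/db, where 24% and 21.4% of all genes were.

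In the smaller table, with 1 array on each side and no test, 28 of the 37 genes were higher in the db/db array, 8 lower and 1 equal, with 56.6% of all genes higher. The median difference was 0.18 against 0.09 for all genes, and the sign matched the larger table for 28 genes (75.7%), close to the 73.1% of all genes. Cd36 (2.53), Slc25a20 (1.40), Etfb (1.05) and Fabp4 (0.91) were among the higher and Lpl (-1.11) and Hadh (-0.37) among the lower. All 11 genes that lay wholly above the lean arrays in the larger table were higher here, and 2 of the 4 that lay wholly below were lower.

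Of 75 related lipid genes outside the set, 62 were tested. In 16-week db/db islets 3 were called higher and 0 lower: Lpin2, a phosphatidate phosphatase of triglyceride synthesis (1.28 ± 0.19, adjusted p = 0.0114 in limma), Fitm2, which helps lipid droplets form (0.86 ± 0.18, 0.0287), and Acsl6, an acyl-CoA synthetase (1.15 ± 0.27, 0.0339). These 3 are 4.84% of the 62, close to the 5.32% of all genes called higher. Lpin2 read 7.06 and 7.31 in db/db against 6.03 and 5.79 in lean KsJ islets, Fitm2 read 8.56 and 8.51 against 7.93 and 7.43, and Acsl6 read 7.4998 and 7.44 against 6.79 and 5.84. Between the lean strains at 16 weeks 2 were called lower in KsJ, the fatty acid receptor Ffar1 (-1.48 ± 0.25, adjusted p = 0.0158 in limma) and the peroxisomal transporter Abcd2 (-1.86 ± 0.46, 0.0484), which is 3.23% against 3.65% of all genes. Ffar1 read 9.37 and 8.67 in KsJ against 10.42 and 10.58 in 6J islets, and Abcd2 read 4.82 and 3.91 against 6.05 and 6.39. In the other 12 comparisons none of the 62 was called.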

How the data were processed

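Islet RNA from 18 samples was measured on Affymetrix arrays, 16 in a larger table and 2 in a smaller one. The authors deposited log2 values per transcript cluster; per the submitters' processing notes MAS5, RMA and Partek were used, without versions or roles. How background was corrected, and whether the tables were normalized together, is not given in the sources used here. For that reason the main tests used the larger table alone, and an alternative fitted both tables with a term for the table.

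Of 41034 clusters in each table, 23521 had 1 gene in the platform annotation, 1814 had several and 15699 had none listed; Entrez IDs gave 23328 of them a current symbol. Each of 22180 genes kept its cluster of highest mean, and the 30% with the lowest mean (below 2.99) were left out. Group means were fitted to the 16 arrays with limma 3.58.1 in R 4.3.3 (8 residual degrees of freedom) with eBayes, and two-sided p-values were adjusted by Benjamini-Hochberg over 15526 genes, called below 0.05. The fit was tested on simulated data. Array medians were 3.51 to 3.83, and precision is limited by how few arrays there are. Alternatives changed the filter, normalization, variance model, weights, covariates and arrays used.

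Values on all 16 arrays are given for each of the 37 genes that was called and for a fixed list of examples of most roles, of which Ucp2 was not analysed here. Other genes are given by range and count, or in part, and related genes by count, with 16-week values of those called. The 39 genes, the related list and the marker lists were chosen with earlier results of these data known. Replicates are numbered in accession order. Promoter windows came from RefSeq (GRCm38.p6), and figures were drawn with matplotlib 3.10.9.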

Additional observations from a re-analysis of the deposited data

How the results depend on the processing

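The 20 single-gene results recomputed under the alternatives had an unadjusted p below 0.05 in limma between obese and lean islets, or were called between lean strains (Pdk4). None of the 20 changed sign. They were picked for clear differences in these same data, so this does not speak for the other lipid genes. Some of those other genes turned sign without the 3 arrays. Of the 339 alternatives for the 20 results, 300 kept their side of the threshold and 24 passed it newly. The other 15 (Cd36 in 16-week db/db islets and Pdk4 between lean strains) lost it. Cd36 ranged in adjusted p (limma) from 0.00184 with both tables joined to 0.333 with array weights. Of 254 alternatives for counts of lipid genes called, 37 moved the count.

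In 16-week db/db islets (1 called) the count was 2 with centring on the tested genes, under eBayes with trend and robust variances or on keeping only genes above the 50th percentile, 3 with median centring, 4 with both tables joined, and 0 with array weights, without the 3 arrays that stand apart, or with the compared groups alone. Leaving out 1 array of the compared groups moved the count too, but leaves 1 array in that group. In 16-week ob/ob islets (0 called) it was 1 with the 50th percentile filter, trend and robust eBayes or the joined tables. It was 6 with array weights and 2 with the compared groups alone. Leaving out the 3 arrays moved it too, in a fit with groups of 1 array. Between lean strains at 16 weeks (1 called) it was 0 with quantile normalization, array weights, marker covariates, centring on the tested genes, the compared groups alone or without the 3 arrays, 2 with a term for Xist and 4 with median centring, and leaving out 1 array gave 0 to 8, the 8 without lean KsJ array 1. The strain shares were 5.41% with the Xist term and 10.8% with median centring, against 16.5% and 12.7% of all genes. In 16-week ob/ob islets each of these counts of 1 stood beside 0.307% (filter), 0.322% (trend and robust) and 0.689% (joined tables) of all genes. Joining the tables gave 1 (Cd36) for the age difference in db/db islets, with 0.258% of all genes. Array weights gave 1 (Acadl) between lean strains at 6 weeks, with 0.605% of all genes. Leaving out 1 array gave 0 to 1 for ob/ob and for the lean strains at 6 weeks (without lean 6J array 1), 0 to 7 for the age difference of lean KsJ islets, and 0 to 3 for the differences between models at 16 weeks and between ages in db/db islets, the last 3 without lean KsJ array 1.

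The cause of these moves was not tested, except that leaving out an array leaves fewer arrays. In 16-week db/db islets 8.11% of lipid genes and 13% of all genes were called with median centring. Joining the tables gave 10.8% and 13.4%, trend and robust eBayes 5.41% and 7.25%, the 50th percentile filter 6.45% and 10.5%, and centring on the tested genes 5.41% and 1.69%. In 16-week ob/ob islets array weights gave 16.2% and 19.1%, and the compared groups alone 5.41% and 8.33%. The calls over all genes in 16-week db/db islets, 826 higher and 74 lower, became 232 and 51 with quantile normalization, 1955 and 56 with median centring and 126 and 137 with centring on the tested genes; the 566 lower and 73 higher between lean strains became 109 and 39, 1882 and 97, and 84 and 122. They ran from 0 (array weights) to 4687 (without lean KsJ array 1) in db/db islets. Fits without lean KsJ array 1 of 16 weeks kept array 2, with the acinar mean of 12.21, as the only lean KsJ array of that age. The Xist term and centring on the tested genes were chosen after seeing the data. No paired analysis was possible because the labels give no replicate numbers shared by the groups.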
